A study of Mus musculus with 6 samples.

Results

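A set of 10 genes that act on stalled RNA polymerase II outside the CUL3 ligase were examined for RPB1 occupancy in Armc5 knockout (KO) and wild-type (WT) mouse adrenal glands. They were chosen by name from what is known of RPB1 ubiquitylation, out of the 12718 genes with counts, and all 10 had counts at the transcription start site (TSS), over the gene body and at the transcription end site (TES). They comprised the NEDD4 family ligases Nedd4 and Wwp2, the elongin and cullin ligase genes Elob, Eloc, Eloa, Vhl, Cul5 and Cul2, and the transcription-coupled repair genes Ercc6 and Ercc8. RPB1 on chromatin was sequenced after immunoprecipitation (ChIP-seq), using an antibody that binds the N-terminal domain, from 3 Armc5(-/-) and 3 WT adrenal samples. Each sample carries its own mouse number, and the mice were females of 10 to 14 months on a 129 sv X CD1 background. The sources used here do not give how the Armc5 allele was made. Armc5 itself was not analysed here, so the genotypes rest on the labels.

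RPB1 is the catalytic subunit of RNA polymerase II. A polymerase that stalls for good on a damaged or blocked template can be ubiquitylated on RPB1, extracted from chromatin and degraded by the proteasome. Work in yeast and human cells describes a relay in which a HECT ligase of the NEDD4 family attaches the first ubiquitin and an elongin-cullin ligase extends the chain, while CSB and CSA, the products of Ercc6 and Ercc8, detect the stalled enzyme and recruit repair. ARMC5 is a substrate adaptor of CUL3 that targets RPB1. The comparison asks whether the genes of the other ligases carried more polymerase, relative to other genes, when ARMC5 was missing. ChIP-seq counts report polymerase on a gene, not its transcript or protein. Counts were scaled within each region, so fold changes and scaled counts are relative to the other genes of that region. A change shared by most genes would be scaled away.

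Promoters of 4 members are shown, chosen for their TSS values or a neighbouring gene. Whether the sequences bear on the counts was not tested. The sources used here do not give the start counted for each gene. Vhl had the largest TSS difference, Nedd4 the highest TSS counts, Cul5 the lowest, and Ercc8 shares its promoter with a neighbour. Each covers 250 bases before to 50 after an annotated start in RefSeq, build GRCm38.p6, written 5′ to 3′ on the gene's strand. Capitals mark the motif letters searched on both strands, namely the TATA box with the letters TATAAA, the CCAAT box, the GC box with the letters GGGCGG, the ETS motif with the letters CCGGAAG, the CRE with the letters TGACGTCA, and the NRF1 motif.
Vhl: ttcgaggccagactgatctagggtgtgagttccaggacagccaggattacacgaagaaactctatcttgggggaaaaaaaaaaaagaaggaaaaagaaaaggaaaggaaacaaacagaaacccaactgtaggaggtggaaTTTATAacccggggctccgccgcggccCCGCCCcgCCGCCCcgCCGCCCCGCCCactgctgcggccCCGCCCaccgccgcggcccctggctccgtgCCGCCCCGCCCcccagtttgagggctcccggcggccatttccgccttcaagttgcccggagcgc
Nedd4: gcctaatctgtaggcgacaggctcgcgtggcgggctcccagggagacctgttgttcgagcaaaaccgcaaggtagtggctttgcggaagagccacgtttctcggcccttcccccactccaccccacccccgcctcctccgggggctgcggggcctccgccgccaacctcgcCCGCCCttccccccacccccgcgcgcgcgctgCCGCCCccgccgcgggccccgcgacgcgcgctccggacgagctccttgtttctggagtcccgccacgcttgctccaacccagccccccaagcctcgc
Cul5: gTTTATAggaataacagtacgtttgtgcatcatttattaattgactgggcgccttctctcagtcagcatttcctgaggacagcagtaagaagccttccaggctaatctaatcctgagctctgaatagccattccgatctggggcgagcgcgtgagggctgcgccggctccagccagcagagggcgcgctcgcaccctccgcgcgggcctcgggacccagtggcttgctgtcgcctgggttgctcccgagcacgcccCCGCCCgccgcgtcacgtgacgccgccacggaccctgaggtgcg
Ercc8: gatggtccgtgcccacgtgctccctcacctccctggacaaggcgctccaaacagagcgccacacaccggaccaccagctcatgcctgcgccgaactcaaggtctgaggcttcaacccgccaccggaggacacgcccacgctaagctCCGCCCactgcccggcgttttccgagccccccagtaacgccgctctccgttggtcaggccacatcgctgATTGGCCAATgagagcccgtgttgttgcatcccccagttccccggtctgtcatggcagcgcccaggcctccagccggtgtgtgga

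The Vhl window (chr6:113623744-113624043, plus strand) held 7 matches to the GC box, some of which overlap, with first bases from -83 to -9 relative to the start, and 1 TATAAA at -110. The Nedd4 window (chr9:72662081-72662380, plus strand) held 2 GC boxes. A second annotated Nedd4 start lies at chr9:72693048-72693347, plus strand, and the sources used here do not say which start the counted window used. The Cul5 window (chr9:53667458-53667757, minus strand) held 1 GC box after the start and 1 TATAAA at its far end, and an antisense RNA gene, Gm16124, overlaps Cul5 by 415 bp there. The Ercc8 window (chr13:108158488-108158787, plus strand) held 2 adjacent CCAAT letters and 1 GC box. Of 32851 promoter windows, 35.7% held a GC box, 37.4% a CCAAT, 13.6% a TATAAA, 8.86% the ETS letters, 4.6% the NRF1 letters and 1.79% the CRE. RefSeq windows matched 8 of the 10 members, with 9 windows in all. Their median GC content was 64.3% and their median number of CpG dinucleotides 27, against 52.7% and 7 over all windows.

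Summed counts over the 3 regions ranged from 14511177 to 28190157 per library. The libraries labelled WT replicates 1 and 2 and KO replicate 1 were the shallowest and stood apart, with 10.9% to 25.1% of TSS counts on the predicted gene Gm10800, against 2.67% to 4.66% in KO replicates 2 and 3 and WT replicate 3. Markers of the steroidogenic cortex were all present, with 8 of 8 listed genes tested and summed gene body levels of 3763 to 4672 CPM (counts scaled by library size) in KO and 2406 to 5771 CPM in WT. The capsule and fibroblast list, with 4 of 7 genes tested, summed to 87.9 to 108.7 CPM over KO gene bodies and 122.8 to 331.5 CPM over WT gene bodies. The endothelial list, with 5 of 7 tested, summed to 532.3 to 567.4 CPM in KO and 628 to 690.1 CPM in WT. In whole glands, fewer cells of a type and less polymerase per cell cannot be told apart.

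None of the 10 members passed the test in any region. Each region table was tested whole with the edgeR quasi-likelihood test, and a gene was called at a Benjamini-Hochberg adjusted p under 0.05. Of all tested genes 0.339% were called at the TSS, every one higher in KO (0% lower), and 0.252% over gene bodies (0.244% higher and 0.00787% lower in KO). At the TES 0.915% were called (0.82% higher and 0.0946% lower in KO), and with shares this low a count of 0 among 10 genes is no result about the members. At an unadjusted p under 0.05 stood Vhl at the TSS, beside 5.57% of all tested genes, 0 members over gene bodies, beside 5.05%, and Ercc6 at the TES, beside 6.85%. The median log2 fold change of the members, KO over WT, was 0.01 at start sites, -0.10 over bodies and -0.23 at end sites, against -0.01, -0.02 and -0.02 for all tested genes.

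**Figure D1:**
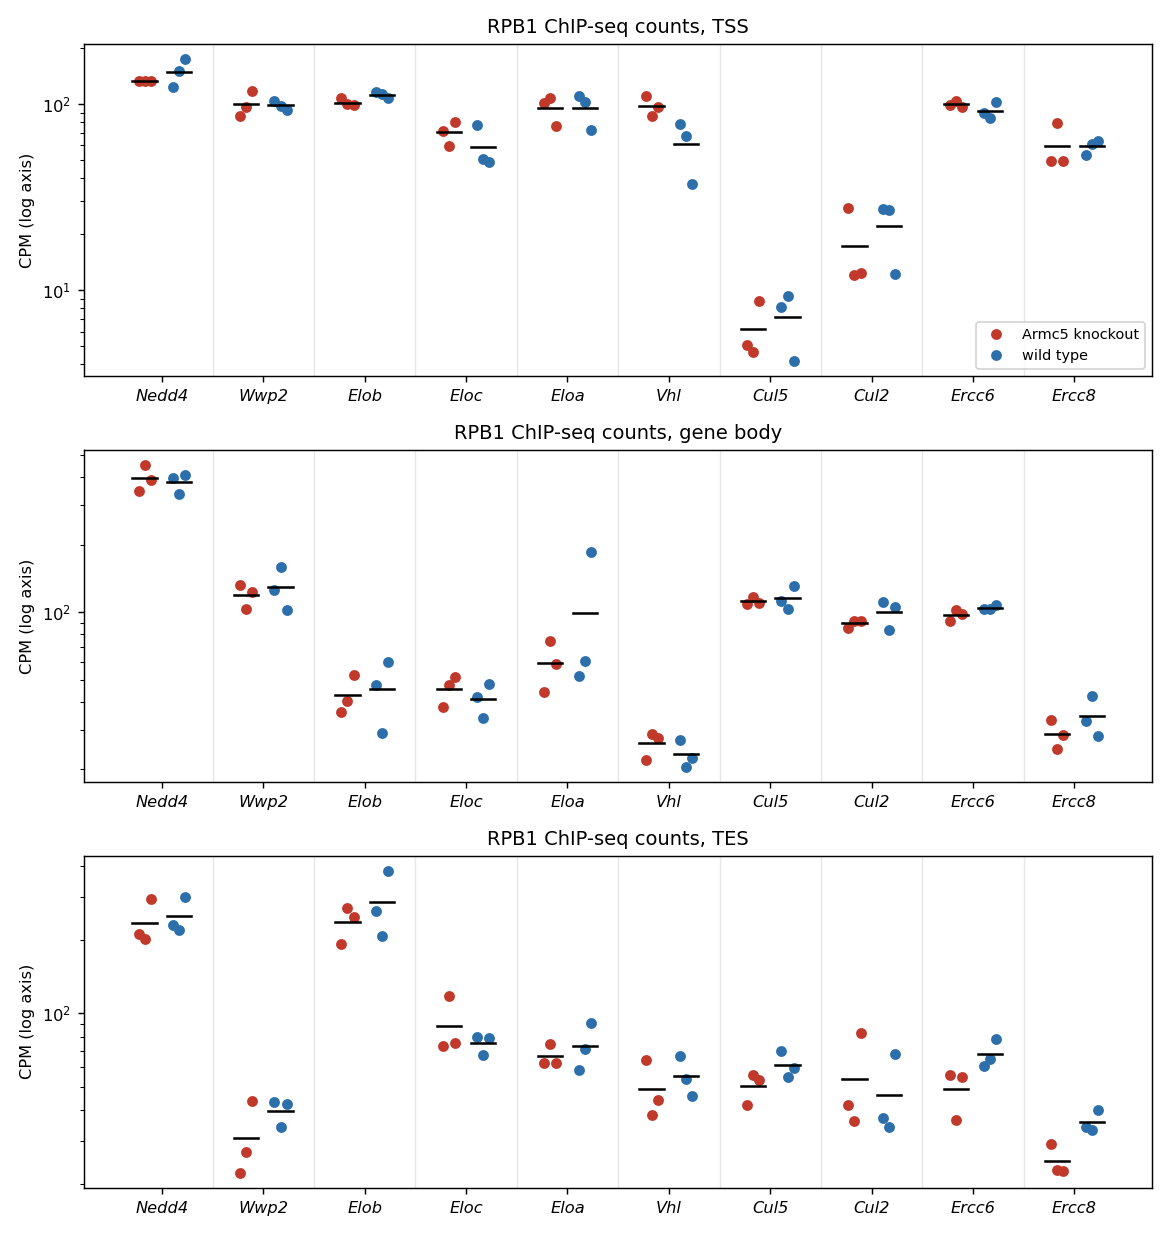
CPM of the 10 member genes at the TSS, over the gene body and at the TES on log axes. Red points are the 3 KO libraries, blue points the 3 WT libraries and bars the group means. The groups overlap for most genes, Vhl at the TSS has all 3 KO points above the WT points, and Ercc6 and Ercc8 at the TES have all 3 KO points below them.

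At the TSS the HECT ligase genes had similar scaled counts in both genotypes. Nedd4, the founding ligase of its family and the mammalian counterpart of yeast Rsp5, had 132.8, 133.9 and 132.5 CPM in KO libraries against 123, 151 and 174.7 CPM in WT libraries. The KO values lay within the WT range, and the log2 fold change was -0.17 ± 0.16 (SE; adjusted p = 0.952). Wwp2, a related ligase that ubiquitylates RPB1 in mouse embryonic stem cells, had 86.7, 96.7 and 118.2 CPM in KO and 104.5, 98.2 and 92.8 CPM in WT. Its log2 fold change was 0.03 ± 0.17 (adjusted p = 0.991), with a 95% interval of the fold from 0.796 to 1.32.

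Vhl encodes the substrate receptor of the CUL2 ligase, best known for the oxygen-dependent degradation of HIF alpha subunits. Its TSS counts were 110.3, 86.8 and 97.0 CPM in KO libraries and 77.9, 67.2 and 37.1 CPM in WT libraries. Every KO library lay above every WT library, and the means were 98.0 ± 11.8 CPM in KO and 60.7 ± 21.1 CPM in WT (SD, n = 3 each). The fold change was 1.64 with a 95% interval from 1.12 to 2.41 (log2 0.71 ± 0.25) and did not pass (edgeR adjusted p = 0.654). Groups did not overlap at the TSS for 2 of 10 members, Vhl and Elob, beside 11.4% of all tested genes (6.47% with KO above WT and 4.93% with KO below).

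The lowest Vhl value belonged to WT replicate 3, a deep library with 116 Vhl reads, and the size of the difference turned on it. Without it the log2 fold change was 0.42 ± 0.20 (edgeR adjusted p = 0.525). Among the 3 deeper libraries, 2 KO and 1 WT, it was 1.31 ± 0.24 (adjusted p = 0.0809), and among the 3 shallower, 1 KO and 2 WT, it was 0.58 ± 0.23 (adjusted p = 0.5845). Each of these fits has a lone library on one side, which is taken to vary like the others. With depth class as a covariate the log2 fold change was 0.95 ± 0.18 and passed (adjusted p = 0.00439), and in that fit 158 genes were called at the TSS in place of 43. Vhl was the only member called in any of the fits tried.

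Of the elongin genes, Elob had lower TSS values in every KO library, and Eloc and Eloa overlapped between the groups. Elob and Eloc encode elongin B and C, the small adaptor pair that joins substrate receptors to CUL2 and CUL5. Elob had 107.5, 99.9 and 98.4 CPM at the TSS in KO and 116, 112.7 and 107.8 CPM in WT. The log2 fold change was -0.14 ± 0.14 and did not pass (adjusted p = 0.965). Eloc had 72, 59.4 and 80.1 CPM in KO and 77.3, 50.7 and 48.6 CPM in WT (log2 fold change 0.25 ± 0.22, adjusted p = 0.952). Eloa, the elongin A receptor that directs the CUL5 ligase to RPB1 and also stimulates elongation, averaged 94.9 ± 16.6 CPM in KO and 94.9 ± 19.9 CPM in WT.

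The cullin scaffold genes gave few TSS reads and had the widest TSS intervals of the members. Cul5 had 9, 17 and 24 reads in KO libraries and 15, 9 and 13 reads in WT libraries. Cul2 had 49, 44 and 34 reads in KO and 50, 26 and 38 reads in WT. The 95% intervals of the fold ran from 0.413 to 1.98 for Cul5 and from 0.408 to 1.53 for Cul2, so these data leave room for a change in either direction. The Cul2 values split by depth class and not by genotype. They were 27.6, 12.05 and 12.4 CPM in KO and 27.2, 26.9 and 12.2 CPM in WT, with the higher values in the 3 shallower libraries. With depth class as a covariate the Cul2 log2 fold change was 0.018 ± 0.29, in place of -0.34 ± 0.43. Both genes had many more reads over their bodies, from 1235 to 2898 for Cul5 and from 996 to 2330 for Cul2. The start counted for either gene is not known, so low TSS counts may not describe the start in use.

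Of the repair genes, Ercc6 encodes CSB, the ATPase that binds polymerase stalled at a lesion. Its TSS counts were 99.1, 104.6 and 96.2 CPM in KO and 89.8, 83.8 and 102.7 CPM in WT (log2 fold change 0.11 ± 0.15, adjusted p = 0.982). Ercc8 encodes CSA, the WD40 receptor of a CUL4 ligase. It had 49.5, 78.9 and 49.4 CPM in KO and 53.4, 61.0 and 63.4 CPM in WT (log2 fold change 0.01 ± 0.22, adjusted p = 0.998). Its TSS counts cannot be separated from those of Ndufaf2, a complex I assembly factor gene that lies head to head with it across 58 bp. Ndufaf2 had 50.7, 81.6 and 43.9 CPM in the same KO libraries and 56.6, 81.7 and 66.6 CPM in WT.

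**Figure D2:**
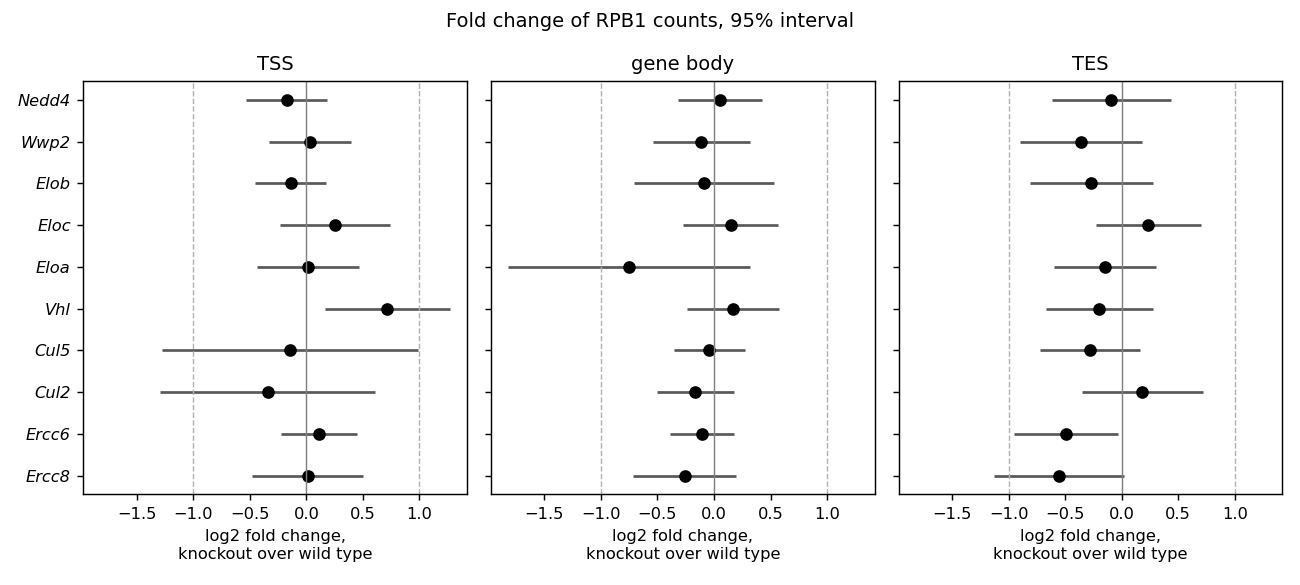
Log2 fold change of each member, KO over WT, at the TSS, over the gene body and at the TES, with 95% intervals from the edgeR fit. Dashed lines mark log2 values of -1 and 1. All intervals cross 0 but those of Vhl at the TSS (0.16 to 1.27) and Ercc6 at the TES (-0.95 to -0.03).

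Over gene bodies no member passed, with log2 fold changes from -0.75 for Eloa to 0.17 for Vhl. The 95% interval of the Eloa fold ran from 0.284 to 1.25. Nedd4 had 347.8, 453.7 and 387.9 CPM in KO and 397.5, 336.3 and 409.7 CPM in WT, a fold of 1.04 with a 95% interval from 0.804 to 1.35. Vhl had 22.1, 28.6 and 27.6 CPM in KO and 26.9, 20.5 and 22.4 CPM in WT (log2 fold change 0.17 ± 0.18, edgeR adjusted p = 0.935). The Vhl groups overlapped there, unlike at its TSS, and the ratio of the 2 regions is tested below. The upper ends of the 95% intervals lay between 1.13 and 1.49 for the 10 genes, below a 2-fold rise relative to other genes in each.

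Ercc6 was the 1 member whose gene body groups did not overlap, beside 10.4% of all tested genes (6.51% with KO above WT and 3.87% with KO below). It had 91.6, 102.5 and 98.4 CPM in KO and 103.5, 103.5 and 108.1 CPM in WT, a small gap that did not pass (log2 fold change -0.11 ± 0.12, adjusted p = 0.936). Cul5 averaged 112.2 ± 4.597 CPM in KO and 115.5 ± 14.1 CPM in WT, and Cul2 averaged 89.5 ± 3.89 CPM in KO and 100.2 ± 14.7 CPM in WT. Wwp2, Elob, Eloc and Ercc8 had log2 fold changes of -0.11, -0.09, 0.15 and -0.26 with overlapping groups.

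Eloa showed the most negative gene body value of the members, and 1 library made it. Its counts were 44.2, 74.5 and 59.2 CPM in KO and 51.8, 60.7 and 186 CPM in WT. WT replicate 3 stood far above the other 5 libraries there, while at the Eloa TSS it was the lowest with 72.3 CPM. The log2 fold change was -0.75 ± 0.47 (adjusted p = 0.934), and without WT replicate 3 it was 0.08 ± 0.21 (adjusted p = 0.866).

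At the TES, 8 of 10 members had lower fitted values in KO and none passed. The share of all tested genes with lower values was not counted, and their median log2 fold change was -0.02. Without WT replicate 3 the log2 fold changes of Nedd4, Elob and Eloa were 0.065, 0.0053 and 0.052, so the count leans on that library. Ercc6 had 56, 36.6 and 54.6 CPM in KO and 60.9, 64.7 and 78.7 CPM in WT. All KO libraries lay below all WT libraries, with a fold of 0.711 and a 95% interval from 0.518 to 0.977 (log2 -0.49 ± 0.23, edgeR adjusted p = 0.648). Ercc8 had 29.1, 22.9 and 22.6 CPM in KO and 34.3, 33.3 and 40.2 CPM in WT, again without overlap (log2 -0.55 ± 0.29, adjusted p = 0.766). These 2 of 10 genes stood beside 11.5% of all tested genes whose TES groups did not overlap (6.69% with KO above WT and 4.83% with KO below).

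Both repair genes had values nearer 0 among the shallower libraries, a difference that was not tested. The log2 fold change of Ercc6 at the TES was -0.80 among the 3 deeper and -0.16 among the 3 shallower libraries, and that of Ercc8 was -0.84 and -0.21 (edgeR adjusted p from 0.296 to 0.9999). The deeper set holds 1 WT and the shallower set 1 KO library, so each value rests on a lone library taken to vary like the others. Without KO replicate 2 the Ercc6 value was -0.31. KO replicate 2 was the deepest library and had the highest chromaffin marker sum (7 of 8 listed genes tested). At the TES that sum was 2954 CPM, beside 1027 and 1466 CPM in the other KO libraries and 665.7 to 1771 CPM in WT. The next highest sum, 1771 CPM, belonged to WT replicate 3, which had the highest Ercc6 and Ercc8 values, 78.7 and 40.2 CPM. Other marker lists differed at the TES without overlap, in both directions. The endothelial list summed to 253.8 to 261 CPM in KO and 298 to 355.4 CPM in WT, and the capsule and fibroblast list to 85.6 to 120.3 CPM in KO and 139.6 to 382.4 CPM in WT. The macrophage list (5 of 7 tested) was higher, at 647.2 to 700.6 CPM in KO and 466.7 to 584.3 CPM in WT. No tested marker of these lists was at 0, and their part in the results was not tested.

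The other TES values overlapped between the groups. Nedd4 averaged 235 ± 50.2 CPM in KO and 250 ± 44.2 CPM in WT, and Wwp2 averaged 31.0 ± 11.3 CPM in KO and 40.0 ± 4.91 CPM in WT. Eloc had 73.6, 117.9 and 75.2 CPM in KO and 79.8, 67.6 and 79.2 CPM in WT. KO replicate 2 stood above the rest there. Vhl averaged 49.0 ± 13.6 CPM in KO and 55.6 ± 10.5 CPM in WT, with a log2 fold change of -0.20, opposite in sign to its TSS value. Cul5, Cul2 and Eloa had log2 fold changes of -0.28, 0.18 and -0.15.

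Elob had 192.4, 268.7 and 248.3 CPM at the TES in KO and 263.1, 207.8 and 383.1 CPM in WT (log2 fold change -0.27 ± 0.27, adjusted p = 0.96). The end of Elob overlaps that of the splicing factor gene Srrm2 by 2 bp, on the opposite strand. Srrm2 had 214.6, 238.6 and 258.7 CPM at its TES in the same KO libraries and 279.1, 189.2 and 356.4 CPM in WT. ChIP-seq reads carry no transcript strand, so reads of these 2 ends cannot be told apart, whether or not counting used strand.

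**Figure D3:**
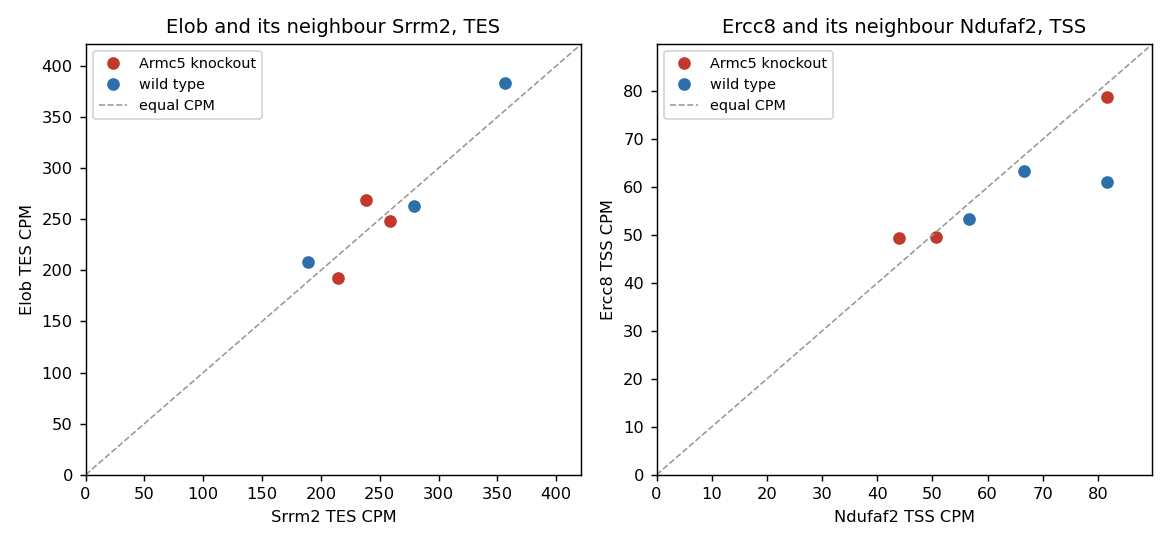
CPM of 2 members against that of the neighbouring gene in each library, for the TES of Elob and Srrm2 and the TSS of Ercc8 and Ndufaf2. Red points are KO and blue points WT libraries, and the dashed line marks equal CPM. The points lie near that line other than 1 WT library of Ercc8, with values from 192.4 to 383.1 CPM for Elob and from 49.4 to 78.9 CPM for Ercc8.

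Whether polymerase was spread differently along the members was tested on the counts, as the interaction of genotype and region with libraries as blocks. The ratios printed below divide start-site by body CPM in each library and were not themselves tested. None of the 10 members was called for either ratio, where 0% of all genes were called for the TSS ratio and 0.0158% for the TES ratio. At an unadjusted p under 0.05 stood 0 members for either, beside 3.64% and 5.7% of all tested genes. The TSS to gene body ratio of Vhl was 5.00, 3.03 and 3.51 in KO and 2.89, 3.28 and 1.65 in WT. The groups overlapped, since WT replicate 2 exceeded KO replicate 2 (log2 change 0.59 ± 0.32, edgeR adjusted p = 0.955). Ercc6 had TSS ratios of 1.08, 1.02 and 0.978 in KO and 0.868, 0.81 and 0.95 in WT, without overlap (log2 change 0.22 ± 0.17, adjusted p = 0.955), and was the 1 such member beside 9.44% of all tested genes. The TSS ratio of Cul5 was 0.0396 to 0.0797 in KO and 0.0317 to 0.0898 in WT, with overlapping groups. Ratios compare windows of unknown width and are read here only between libraries of the same gene.

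Gene body levels per kilobase of annotated length gave the members an order that was nearly the same in both genotypes. Elob was highest, at 9.82 ± 1.96 CPM per kb in KO and 10.4 ± 3.59 CPM per kb in WT. It is also short, at 4370 bp. Nedd4 followed in KO with 4.53 ± 0.611 CPM per kb, against 4.36 ± 0.449 CPM per kb in WT. Vhl had 3.42 ± 0.462 and Eloc 2.91 ± 0.443 CPM per kb in KO, against 3.05 ± 0.432 and 2.63 ± 0.448 CPM per kb in WT. Cul5, Cul2 and Ercc6 had 2.12, 1.67 and 1.44 CPM per kb in KO, against 2.18, 1.87 and 1.55 CPM per kb in WT.

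Wwp2 and Ercc8 were lowest, at 0.972 and 0.675 CPM per kb in KO, against 1.05 and 0.809 CPM per kb in WT. The median of 12381 genes with a length was 1.73 CPM per kb in WT, so 7 members lay above it there. Eloa ranked 2 in WT and 4 in KO, and its WT mean of 5.44 ± 4.11 CPM per kb rested on WT replicate 3. In WT the neighbours in this order overlapped in their library values, other than Nedd4 over Vhl and Ercc6 over Wwp2.

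**Figure D4:**
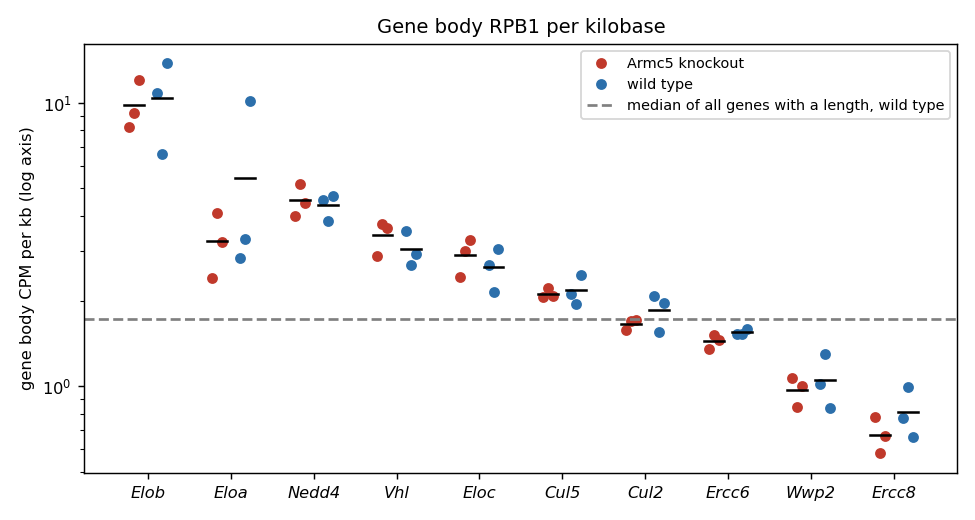
Gene body CPM per kb of annotated gene length on a log axis, ordered by the WT mean, with KO libraries in red left of WT libraries in blue, bars at the means and a dashed line at the WT median of all genes (1.73). Elob is highest and Ercc8 lowest in both genotypes, and the KO and WT points of a gene sit close together other than for 1 WT library of Eloa.

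Summed over the 10 members, TSS counts were 791.9, 784.2 and 769.1 CPM in KO and 787.3, 763.2 and 715.7 CPM in WT. Gene body sums averaged 1018 ± 73.8 CPM in KO and 1075 ± 116 CPM in WT, and TES sums averaged 885 ± 92 CPM in KO and 991 ± 178 CPM in WT. The groups overlapped in each region. Nedd4 made up the largest share of the gene body sum.

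Further genes were taken from 6 lists of ligases and related factors, and not all are known to act in RPB1 ubiquitylation. Pcif1 and Ints6 were listed with the other ligases and factors, although neither is a ligase, conjugating enzyme or deubiquitylation factor. Of 60 listed genes 51 were tested, and 0 were called in any of the 3 regions in either direction. Their median log2 fold changes were -0.05, -0.02 and -0.004. The lists were the CUL3 ligase and its substrate (5 tested), other NEDD4 family ligases and adaptors (6), elongin and cullin partners (7), repair partners (8), other ligases, conjugating enzymes and extraction or deubiquitylation factors (12), and neddylation and COP9 signalosome genes (13). Unadjusted p-values under 0.05 belonged to 1 gene at start sites, 2 over bodies and 3 at end sites of the 51, beside 5.57%, 5.05% and 6.85% of all tested genes.

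The smallest p-values in these lists belonged to Smurf1, a NEDD4 family ligase of TGF-beta signalling, in 2 of the 3 regions. It had 52.9, 40.2 and 69.3 CPM at the TES in KO and 74.5, 82.4 and 87.9 CPM in WT. These groups did not overlap, beside 11.5% of all tested genes, 4.83% with KO below WT (log2 fold change -0.59 ± 0.23, edgeR adjusted p = 0.428). Its gene body groups did not overlap either, beside 10.4% of all tested genes (3.87% with KO below WT). At its start site and over its body the values were -0.44 ± 0.20 and -0.35 ± 0.15, and neither passed (adjusted p = 0.87 and 0.934). Polr2a, the gene of RPB1 itself, had 482.4, 460.3 and 503.5 CPM at the TSS in KO and 657.2, 553.3 and 661 CPM in WT. These groups did not overlap, beside 11.4% of all tested genes (4.93% with KO below WT). The log2 fold change of -0.37 ± 0.17 did not pass (edgeR adjusted p = 0.909). Over its body and at its TES the Polr2a values were -0.64 ± 0.53 and 0.31 ± 0.23. The body value includes WT replicate 3 at 919.6 CPM, beside 277 and 223.5 CPM in the other WT libraries and 187.8 to 385.8 CPM in KO.

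Pcif1, the cap methyltransferase that binds the phosphorylated tail of RPB1, had log2 fold changes of -0.54 at the TSS and -0.59 at the TES (edgeR adjusted p = 0.918 and 0.557). Over its body the value was 0.08 ± 0.25. Ints6, an Integrator subunit, had 283.7, 310.7 and 268.5 CPM over its body in KO and 249.6, 185.9 and 157.2 CPM in WT. Every KO library lay above every WT library, beside 6.51% of all tested genes (log2 fold change 0.54 ± 0.19, edgeR adjusted p = 0.734). Its TSS and TES values were -0.05 and -0.42. Socs2, an elongin-binding receptor of cytokine signalling, had a gene body value of 0.48 ± 0.21 (edgeR adjusted p = 0.934). Its TSS and TES values were 0.44 and 0.10. Uvssa, the repair factor that brings in USP7, had a TES value of 0.49 ± 0.23 (edgeR adjusted p = 0.661). At its TSS and over its body the Uvssa values were -0.24 and -0.12.

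**Figure D5:**
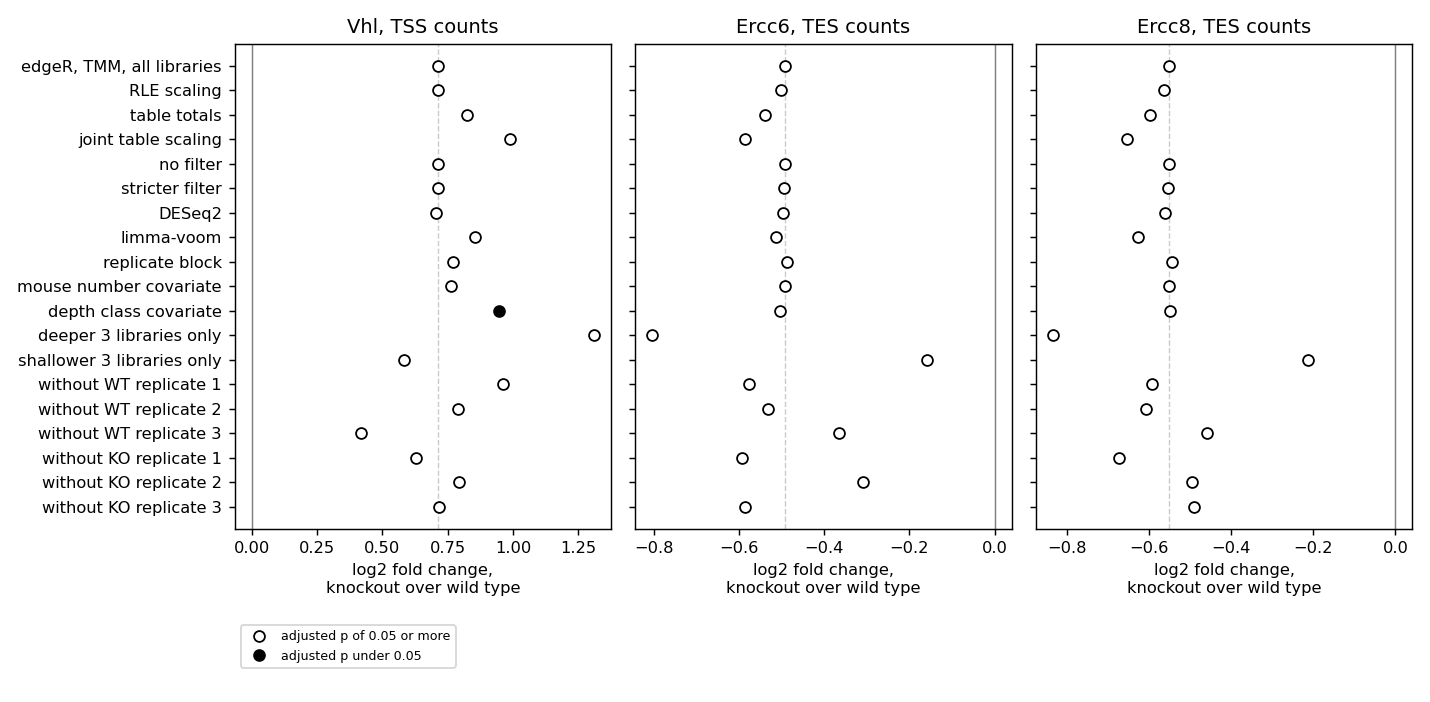
Log2 fold change, KO over WT, of Vhl at the TSS and of Ercc6 and Ercc8 at the TES under each setting named on the vertical axis. Filled points passed an adjusted p of 0.05 and open points did not, and the dashed line marks the value from all 6 libraries. The sign is the same in every setting plotted, and the only filled point is Vhl with the depth class covariate (0.95).

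The values of Vhl at the TSS ranged from 0.42 to 1.31 over 18 other settings, with adjusted p of at least 0.0809 in those that did not pass. Those of Ercc6 and Ercc8 at the TES ranged from -0.80 to -0.16 and from -0.84 to -0.21, and none of them passed. The plot of these settings shows that the deeper and the shallower libraries gave the extremes for both repair genes.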

How the data were processed

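RPB1 ChIP-seq libraries of 3 Armc5 knockout and 3 WT adrenal samples were analysed, grouped and numbered by their titles. The authors deposited whole-number read counts per gene for start sites, gene bodies and end sites of 12718 genes, 1 column per library, and a joint table of 38154 rows that stacks these tables (0 cells differed). They also deposited log2 CPM of the joint table, which the limma-voom formula gave from the counts within 1e-06, and these were left out of the tests. The builds GRCm38 and mm10 and the tools limma, edgeR, HOMER, MACS2, Picard, BWA, Trimmomatic and bcl2fastq 2.20 are named, per the submitters' processing notes. The sources used here do not give window widths, the counting tool, strand use, read filters or any input library. Columns were matched to samples by the mouse numbers they carry.

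For each table edgeR 4.0.16 under R 4.3.3 was run (TMM scaling, filterByExpr with a minimum count of 10 and total of 15, quasi-likelihood F test, Benjamini-Hochberg over all tested genes). SE is the log2 fold change over the square root of F, and 95% intervals use the fit's degrees of freedom. Ratios were tested as the interaction of genotype and region, with libraries as blocks, and 0.01 CPM was added for their overlap counts. Scripts were tested on simulated data. Alternatives used DESeq2 1.42.0, limma 3.58.1, other scalings, filters, covariates and left-out libraries. Depth class separates the 3 libraries with the lowest summed counts. The mouse number covariate separates mouse numbers that begin with C, which are replicate 1 of each genotype, from the rest. The 10 members were named throughout, and of the further lists the called genes or the 3 smallest p-values per region. Members, lists and tests were chosen with earlier results of these data known. Neighbours are genes within 5000 bp in RefSeq GRCm38.p6. The precision of a CPM value is set by its read count.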

Additional observations from a re-analysis of the deposited data

How the results depend on the processing

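Of 779 alternative values of the 50 member results, 704 kept their direction and side of the threshold, 1 passed (Vhl at the TSS with the depth class covariate, which made 1 member called) and 74 changed sign, none of them called. The 9 values of the further listed genes kept direction and side in all 162 cases. Cul5 at the TSS was not tested under the stricter filter. Joint table scaling moved the median log2 fold change of all genes to 0.24 at start sites, -0.12 over bodies and -0.12 at end sites, and gene body scaling moved that of the TES ratio to -0.10. The TSS values of Cul5 and Cul2 have the widest intervals at the TSS, and Cul2 splits there by depth class.

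The count of genes called at the TSS (43) was 107 with joint table scaling, 95 with DESeq2, 100 with the replicate block, 75 with the mouse number covariate, 158 with the depth class covariate, 68 in the shallower libraries and 5 to 84 with 1 library left out (5 without KO replicate 3, 14 without WT replicate 1 or KO replicate 2, 20 without WT replicate 2, 84 without KO replicate 1). In the gene body (32) it was 0 with joint table scaling, 179 with DESeq2, 0 with the replicate block or the mouse number covariate, 95 with the depth class covariate, 0 in the deeper and 19 in the shallower libraries, and 0 to 37 with 1 left out. At the TES (116) it was 61 with joint table scaling, 194 with the replicate block, 184 with the depth class covariate, 177 in the deeper and 18 in the shallower libraries, and 73 to 148 with 1 left out. The TSS ratio count (0, and 462 at an unadjusted p under 0.05) was 27 with the depth class covariate. For the TES ratio (2) the count was 0 with limma, RLE scaling or the replicate block, 1 with gene body scaling, 9 with the depth class covariate and 0 to 15 with 1 left out. The cause was not tested.

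Deviations from means of 3 libraries cannot decide whether replicate numbers pair the libraries. Same-numbered deviations correlated at 0.443, -0.215 and 0.361 at start sites. Over bodies they correlated at 0.0734, -0.594 and 0.277, and at end sites at 0.0307, -0.31 and 0.212. Not every library correlated best with its own number. With the block 0 members were called in any test.

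The sign changes were near 0 for most genes. They were, on the log2 scale, with joint table scaling Nedd4 (0.067), Elob (0.12) and Cul5 (0.13) at the TSS and Nedd4 (-0.049) in the gene body, and Ercc8 at the TSS with limma-voom (-0.0013), the replicate block (-0.045) and the mouse number covariate (-0.00042). With the depth class covariate they were Cul5 (0.0199), Cul2 (0.018) and Ercc8 (-0.066) at the TSS, Nedd4 (-0.019) and Wwp2 (0.014) in the gene body, Cul2 at the TES (-0.013), and the TSS ratios of Wwp2 (-0.0297), Elob (0.14), Cul5 (0.17) and Cul2 (0.23). In the deeper libraries they were Cul5 (0.67), Cul2 (0.015) and Ercc6 (-0.026) at the TSS, Wwp2 in the gene body (0.15) and Cul2 at the TES (-0.20). In the shallower libraries they were Wwp2 (-0.24), Eloa (-0.079), Cul2 (0.021) and Ercc8 (-0.20) at the TSS, Nedd4 (-0.068), Vhl (-0.096) and Cul5 (0.027) in the gene body, and Eloc (-0.0076) and Vhl (0.084) at the TES. Gene body scaling gave the TSS ratio of Cul5 (0.0023) and the TES ratio of Eloc (-0.015).

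With 1 library left out, the TSS values ran from -0.26 to 0.13 for Ercc8, -0.50 to 0.051 for Cul5, -0.10 to 0.12 for Wwp2 and -0.17 to 0.15 for Eloa. Gene body values ran from -0.045 to 0.14 for Nedd4, -0.25 to 0.066 for Wwp2, -0.32 to 0.16 for Elob, -1.06 to 0.075 for Eloa and -0.11 to 0.056 for Cul5. TES values ran from -0.28 to 0.065 for Nedd4, -0.46 to 0.0053 for Elob, -0.30 to 0.052 for Eloa, -0.027 to 0.35 for Eloc and -0.29 to 0.59 for Cul2. TSS ratios ran from -0.54 to 0.18 for Cul5, -0.041 to 0.28 for Wwp2, -0.34 to 0.20 for Elob, -0.61 to 0.093 for Cul2, -0.12 to 0.33 for Eloc, -0.24 to 1.03 for Eloa and -0.13 to 0.43 for Ercc8. TES ratios ran from -0.15 to 0.29 for Eloc, -0.023 to 0.66 for Eloa, -0.32 to 0.052 for Nedd4 and -0.056 to 0.68 for Cul2.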

Other observations

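The library WT replicate 3 stood above the others over the bodies of Eloa and, chosen after its values were seen, of Polr2a, which had 187.8, 339.6 and 385.8 CPM in KO and 277, 223.5 and 919.6 CPM in WT. At its TSS Polr2a had 661 CPM in that library, close to the 657.2 CPM of WT replicate 1.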
